A study of Arabidopsis thaliana with 6 samples.

Results

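The minor antenna of photosystem II is described here through 7 *Arabidopsis* genes, *LHCB3* (AT5G54270), *LHCB4.1* (AT5G01530), *LHCB4.2* (AT3G08940), *LHCB4.3* (AT2G40100), *LHCB5* (AT4G10340), *LHCB6* (AT1G15820) and *LHCB7* (AT1G76570). They were taken by locus code from the probe names of the arrays, and all 7 were found among the 29030 loci represented there. The transcripts were measured on 6 one-color Agilent arrays of whole seedlings of accession Col, grown for 3 days on sucrose-free MS medium in continuous white light. 3 arrays carried RNA of wild type (WT) and 3 carried RNA of *hy5* (SALK_096651), an insertion line in the gene of LONG HYPOCOTYL5 (HY5), a bZIP transcription factor of photomorphogenesis. A single mutant allele was used, and neither the labels nor the methods state whether the 3 replicates were separate plant samples, so the p-values may measure technical spread.

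Light-harvesting chlorophyll a/b proteins bind chlorophyll and carotenoids in the thylakoid membrane and pass excitation energy to the reaction centers. In photosystem II most of the chlorophyll of the antenna sits in trimers of LHCB1, LHCB2 and LHCB3, while the monomeric proteins CP29, CP26 and CP24 link these trimers to the core complex. The genes are encoded in the nucleus, are known for their induction by light during greening, and their products are imported into the plastid. *LHCB3* is a trimer subunit and is grouped with the minor antenna by gene number, not by the position of its protein. *LHCB4.1*, *LHCB4.2* and *LHCB4.3* encode forms of CP29, *LHCB5* encodes CP26 and *LHCB6* encodes CP24. *LHCB7* encodes a rarer family member whose symbol is listed in the gene table as a synonym of AT1G76570.

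The scanner software's background-subtracted signal of each spot was divided by the 75th percentile of its array. Each value below is a scaled signal of this kind, and each change is relative to that percentile. The percentile was a signal of 487 to 558 on the WT arrays and 981 to 1057 on the *hy5* arrays. In contrast, 10 spike-in probes, which match no plant transcript, had an unscaled ratio of *hy5* to WT of 0.621 to 1.01 with a median of 0.665. The brightest spike-in, with a WT signal of 237368, was at 1.01, and the next, with 62440, was at 0.90. All other spike-ins were at 0.78 or lower. Between 67.0% and 71.2% of probes were well above background on the WT arrays, against 75.4% to 78.7% on the *hy5* arrays. No spot was flagged as saturated. The *LHCB6* probe had unscaled signals of 396817 to 446517 on the *hy5* arrays, the range of the highest signals of those arrays. Whether such brightness affected the values of the members was not tested. Slide 1 held the WT arrays and slide 2 the *hy5* arrays, each scanned separately, and slide, scan and genotype cannot be told apart. Precision is limited by having 3 arrays per genotype.

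The *HY5* transcript was examined first. Its scaled signal was 1.32, 1.38 and 1.24 on the WT arrays and 0.0217, 0.0283 and 0.0169 on the *hy5* arrays, a log2 difference of -5.91 (SE 0.178, limma adjusted p = 7.57e-06). Markers of 3 kinds of tissue were then compared. The 6 markers of green tissue, which include the Rubisco small subunit genes, were detected on every array, and their summed signal was 2152 to 2563 in WT and 1582 to 1718 in *hy5*. The 5 root markers summed to 11.2 to 14.7 in WT and 19.0 to 24.8 in *hy5*. Of these, 4 were higher at a limma adjusted p under 0.05, as were 26.3% of all genes. *PRP3* was among them (limma adjusted p = 0.0499) though its values overlapped between genotypes, and *RHD6* was at -0.10 (limma adjusted p = 0.443). The 12 seed markers (storage proteins, oleosins and EM proteins) summed to 0.787 to 1.76 in WT and 7.78 to 15.7 in *hy5*. None of these markers was at 0, and *SESA1*, a seed albumin gene, was well above background on no WT array. *CRB*, *SESA4* and *OLE2* were so on 2 WT arrays, and like *SESA1* they were tested only because of their signal on the *hy5* arrays. *SESA3* and *SESA4* overlapped between genotypes (limma adjusted p of 0.0275 and 0.29). In whole seedlings, fewer green cells and less RNA per green cell cannot be told apart, and the part of these tissue differences in the values below was not tested.

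All 7 minor antenna genes were lower in *hy5* than in WT when arrays were scaled to the 75th percentile. Under quantile normalization 3 of the 7 were lower at a limma adjusted p under 0.05, as were 27.5% of all genes. *LHCB4.1* and *LHCB6* came out slightly higher there, and *LHCB3* and *LHCB5* did not pass. With the 75th percentile scaling each of the 7 fell at a limma adjusted p under 0.05, whereas 26.6% of the 21590 genes tested did so. The *hy5* arrays lay below all WT arrays for 7 of 7 genes, against 31.7% of all genes. The median log2 difference of the 7 was -0.44, and that of all genes tested was -0.0044. None of the 7 passed the additional limit of a 2-fold fall, which 4.84% of all genes passed. None of the 7 was higher, whereas 26.3% of all genes rose at an adjusted p under 0.05 and 6.55% did so by at least 2-fold. *LHCB4.2* missed that limit by less than the rounding of its log2 difference and passed it under 5 of the other settings that used all 6 arrays. Genes of similar signal were set beside these counts. Among 659 other nuclear genes within the signal range of the 6 brighter members, the median log2 difference was -0.073 and 31.6% were lower at an adjusted p under 0.05. Among 5305 other nuclear genes with a WT signal within 2-fold of that of *LHCB7*, the median was -0.056 and 29.5% were lower.

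**Figure D1:**
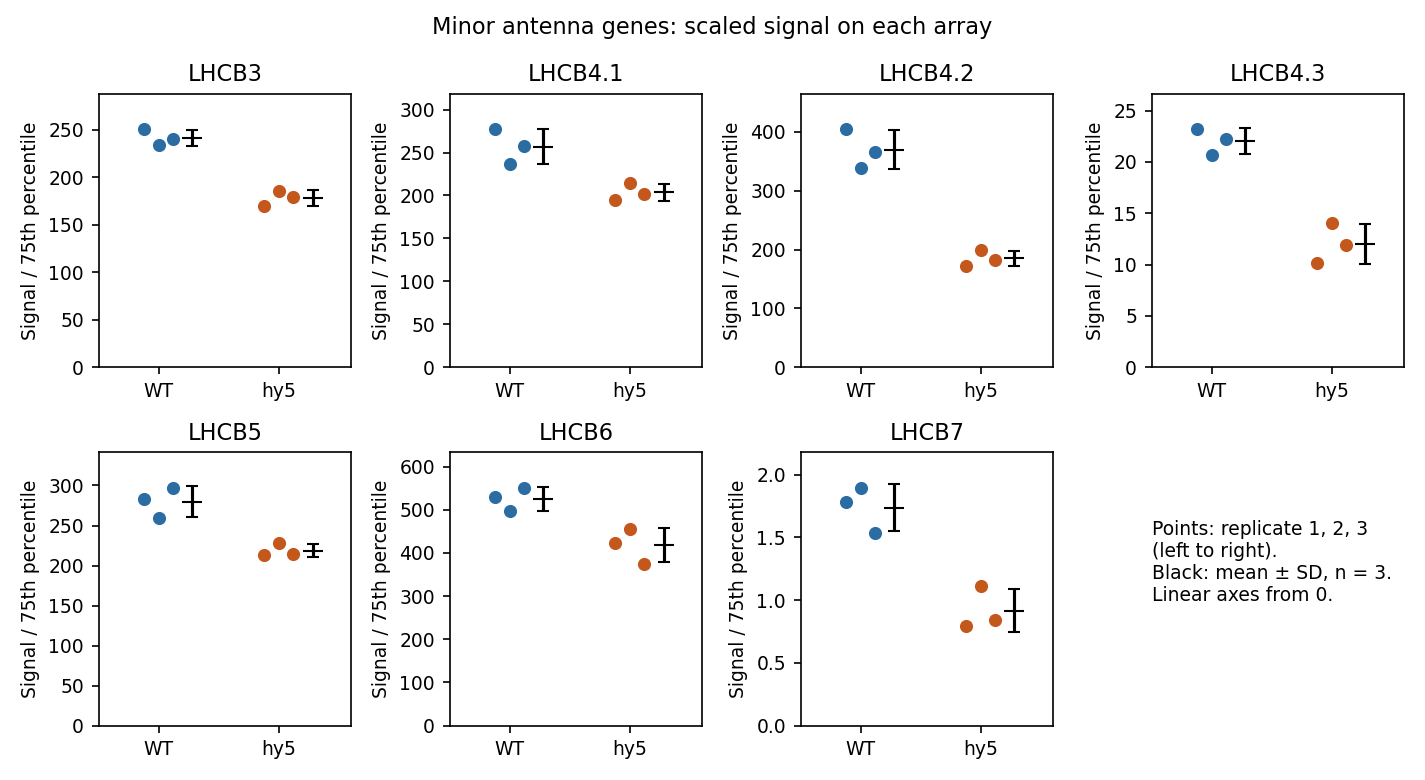
Scaled signal (signal over the array's 75th percentile, linear axes from 0) of each minor antenna gene at its brightest probe, on 3 WT arrays (blue) and 3 *hy5* arrays (orange), with mean and SD (n = 3) in black. The *hy5* points lie below the WT points in every panel, from 169 to 186 against 234 to 251 for *LHCB3* and from 0.797 to 1.11 against 1.53 to 1.90 for *LHCB7*, under this scaling. Under quantile normalization *LHCB4.1* and *LHCB6* were not lower, and *LHCB3* and *LHCB5* did not pass an adjusted p under 0.05.

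The trimer subunit gene *LHCB3* had scaled signals of 251, 234 and 241 on the WT arrays and 169, 186 and 179 on the *hy5* arrays. The lowest WT array was well above the highest *hy5* array. This was a fall to 73.7% of the WT level (log2 difference -0.44, SE 0.0867, limma adjusted p = 0.00433). Under quantile normalization the difference was -0.12 (limma adjusted p = 0.244).

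The CP29 gene *LHCB4.2* had signals of 405, 338 and 367 in WT and 173, 199 and 183 in *hy5*, so the mutant level was 50.01% of WT, with a log2 difference of -0.9996 (SE 0.105, limma adjusted p = 0.000281). The 95% interval of the fold was 1.69 to 2.37. Only 4.96% of all genes tested had a more negative log2 difference. The probe used had the largest fall of the 4 for this gene, and the smallest was -0.74. Under quantile normalization the log2 difference was -0.59 (limma adjusted p = 0.000854).

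*LHCB4.3*, the third CP29 gene, had signals of 23.2, 20.7 and 22.2 in WT and 10.1, 14.0 and 11.9 in *hy5*. The *hy5* values were 54.2% of the WT level (log2 difference -0.88, SE 0.132, limma adjusted p = 0.00126), and *hy5* replicate 2 was the closest to WT.

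*LHCB4.1* had signals of 277, 237 and 257 in WT and 195, 214 and 202 in *hy5*. The gap between the lowest WT array and the highest *hy5* array was small, and the *hy5* level was 79.3% of WT (log2 difference -0.33, SE 0.0968, limma adjusted p = 0.0221). Under quantile normalization the log2 difference was 0.0069 (limma adjusted p = 0.948). Without WT replicate 1, WT replicate 3, *hy5* replicate 1 or *hy5* replicate 3 the adjusted p was 0.0858, 0.0565, 0.0525 and 0.0629.

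The CP26 gene *LHCB5* had signals of 283, 259 and 297 in WT and 213, 228 and 215 in *hy5*. The groups did not overlap, and the *hy5* level was 78.2% of WT (log2 difference -0.35, SE 0.0923, limma adjusted p = 0.0143). Under quantile normalization the log2 difference was -0.00083 (limma adjusted p = 0.993), and without WT replicate 3 it was -0.31 (limma adjusted p = 0.0507).

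The CP24 gene *LHCB6* had signals of 529, 496 and 551 in WT and 424, 455 and 375 in *hy5*. The *hy5* level was 79.4% of WT (log2 difference -0.33, SE 0.104, limma adjusted p = 0.0289). The difference was 0.064 under quantile normalization (limma adjusted p = 0.51). Without WT replicate 1, WT replicate 3, *hy5* replicate 1 or *hy5* replicate 3 the adjusted p was 0.0772, 0.0858, 0.0513 and 0.0929.

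*LHCB7* had signals of 1.78, 1.90 and 1.53 in WT and 0.797, 1.11 and 0.843 in *hy5*. All 3 mutant values were below the lowest WT value, and the *hy5* level was 52.4% of WT (log2 difference -0.93, SE 0.149, limma adjusted p = 0.00171). Its probe, like those of the other members, exceeded background on each of the 6 arrays, and 5.99% of all genes had a more negative difference. Under quantile normalization the log2 difference was -0.93 as well.

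The 7 genes thus spanned log2 differences from -1.0 to -0.33. *LHCB4.2*, *LHCB7* and *LHCB4.3* were at -1.0, -0.93 and -0.88, with 95% intervals of the fold of 1.69 to 2.37, 1.5 to 2.43 and 1.49 to 2.28. *LHCB3*, *LHCB5*, *LHCB4.1* and *LHCB6* were at -0.44, -0.35, -0.33 and -0.33, with intervals of 1.18 to 1.56, 1.1 to 1.48, 1.08 to 1.47 and 1.07 to 1.49. The intervals of neighbors in this order overlapped throughout, and those of *LHCB4.3* and *LHCB3* overlapped the least.

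Whether the CP29 genes changed unequally was examined within arrays, from the log2 signal of one gene minus that of another. *LHCB4.1* minus *LHCB4.2* was -0.55, -0.52 and -0.51 on the WT arrays and 0.18, 0.11 and 0.14 on the *hy5* arrays, a difference of 0.67. *LHCB4.1* minus *LHCB4.3* was 3.58, 3.52 and 3.53 in WT and 4.27, 3.93 and 4.08 in *hy5*, a difference of 0.55. Both pairs were separated without overlap at these probes. The *LHCB4.1* probe used here had the smallest difference of its 5, and with the mean of each gene's probes *LHCB4.1*, *LHCB4.2* and *LHCB4.3* were at -0.54, -0.85 and -0.88. *LHCB4.2* minus *LHCB4.3* differed by -0.12 and overlapped between genotypes. Exact permutation tests (two-sided) gave p = 0.1, 0.1 and 0.3, or 0.15, 0.15 and 0.3 after Benjamini-Hochberg adjustment over the 3 pairs. With 3 arrays against 3 the smallest p is 0.1, so no pair could pass. The CP29 genes are close in sequence, and signal shared between their probes was not tested.

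The arrays carried 22 probes for the 7 genes, each of them above background throughout. All 22 were lower in *hy5* under the 75th percentile scaling, 17 of them at a limma adjusted p under 0.05 over all 29667 probes (25.7% of all probes). For 18 the genotypes did not overlap. That share was not computed over all probes, and it was 31.7% over all genes, each at its brightest probe. None of the 22 fell 2-fold or more, as 4.5% of all probes did. Under quantile normalization 18 of the 22 were lower and 14 passed, against 27.5% of all genes, each at its brightest probe. The 2 *LHCB7* probes gave -0.93 and -0.86, and the 4 *LHCB4.2* probes lay between -1.0 and -0.74. The latter set includes 2 probes named for each of the transcript models AT3G08940.1 and AT3G08940.2. *LHCB4.3* had 1 probe.

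The probe that represents *LHCB4.1* had the smallest difference of its 5. The 3 probes with WT signals of 104, 102 and 91.2 gave -0.60, -0.67 and -0.67 (limma adjusted p of 0.00178 to 0.00251), and the dimmest, with a WT signal of 0.0638, gave -0.42 (limma adjusted p = 0.0424). At the first 3 of these the *hy5* signals of 51.6 to 75.9 were all below the WT signals of 82.4 to 111. The *LHCB5* probe with a WT signal of 92.5 likewise had a larger difference, -0.52, than the 2 brighter ones, at -0.35 and -0.29. The order reversed for *LHCB3*, where the probe with a WT signal of 12.3 had -0.098 (limma adjusted p = 0.47) and the one of 148 had -0.21 (limma adjusted p = 0.108). The 3 *LHCB6* probes lay between -0.36 and -0.25, and only the brightest passed the threshold. The log2 differences of a gene's probes spanned 0.36 for *LHCB3*, 0.34 for *LHCB4.1*, 0.26 for *LHCB4.2* and 0.23 for *LHCB5*. The span was 0.11 for *LHCB6* and 0.076 for *LHCB7*. Differences between probes were not tested.

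**Figure D2:**
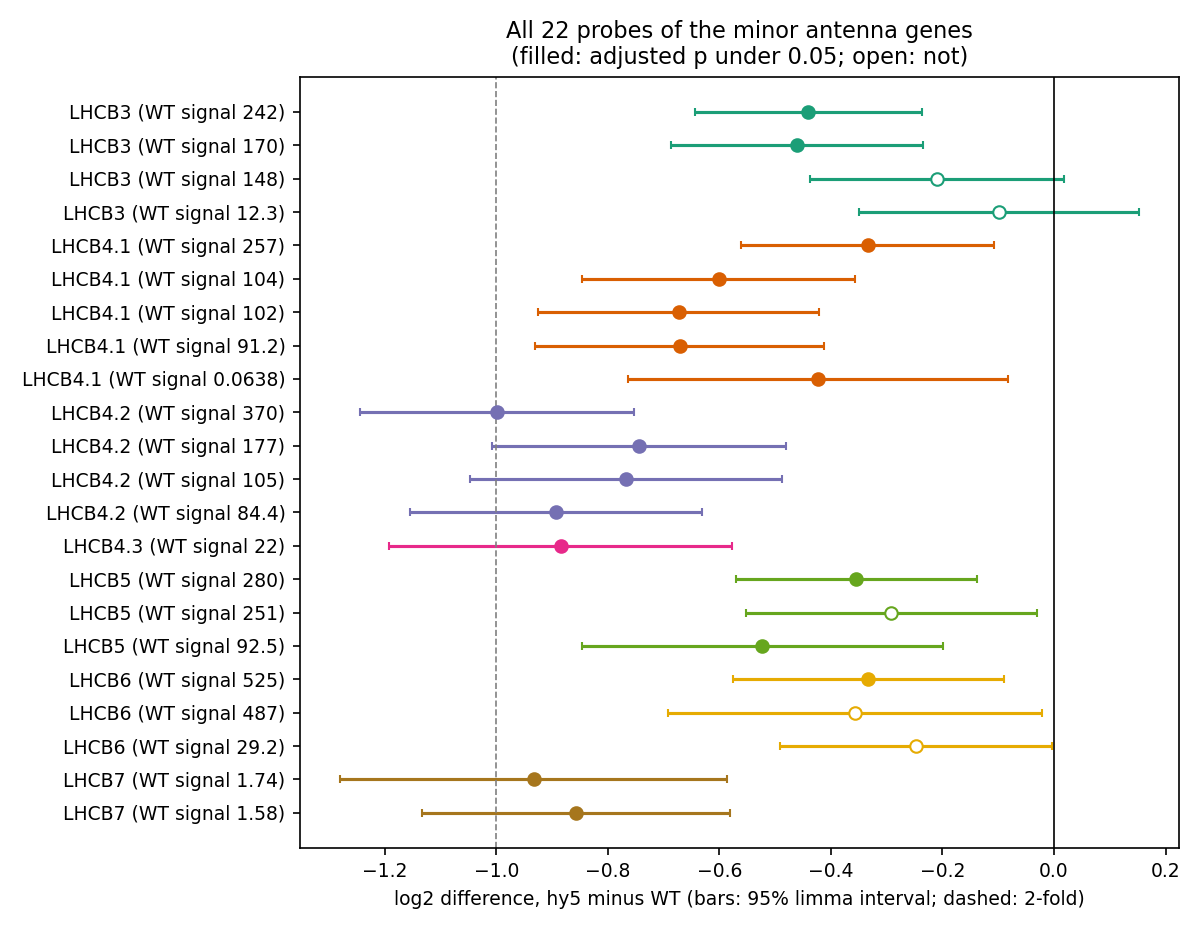
The log2 difference (*hy5* minus WT) of all 22 probes with 95% limma intervals, named by gene and mean WT scaled signal. Filled points passed an adjusted p under 0.05 and the dashed line marks a 2-fold fall. All points lie below 0, between -1.0 and -0.098, with the *LHCB4.2*, *LHCB4.3* and *LHCB7* probes at the left, under this scaling. Under quantile normalization 4 of the 22 were above 0.

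The scaling mattered by signal strength. Quantile normalization, which gives all arrays the same distribution of signals, raised the log2 difference of the 10 probes with a WT signal of 148 or more by 0.14 to 0.44, and moved that of the 12 probes with a WT signal of 105 or less by -0.11 to 0.0060. Of the 10 bright probes, 4 were then higher and 3 lower at an adjusted p under 0.05. All 12 dimmer probes stayed lower and 11 of them passed. Each of the 7 genes had at least 1 probe that passed under quantile normalization. For *LHCB3*, *LHCB5* and *LHCB6* it was 1 of 4, 1 of 3 and 1 of 3 probes (limma adjusted p of 0.0228, 0.00626 and 0.00742). These were the lowest of several probes. The share of all genes with such a probe was not computed, so nothing is concluded from this count. Median scaling and cyclic loess kept all 7 genes lower at an adjusted p under 0.05, against 26.6% and 27.4% of all genes. Normexp background correction moved the median of all genes to -0.20. *LHCB5* was then at -0.20 (limma adjusted p = 0.0497), close to that median, so its pass was not a fall relative to other genes. *LHCB4.2*, *LHCB4.3* and *LHCB7* were at -0.97, -0.83 and -0.89. For *LHCB6* the correction also made another probe the brightest, which gave -0.20 (limma adjusted p = 0.148). The *LHCB6* probe used elsewhere gave -0.25 under normexp (limma adjusted p = 0.0275 over all probes). Without any scaling, the ratio of *hy5* to WT signal was 0.956 for *LHCB4.2*, 1.00 for *LHCB7* and 1.04 for *LHCB4.3*. It lay between 1.41 and 1.52 for the other 4 genes, against 1.91 for the 75th percentile itself. The spike-in probes were at 0.621 to 1.01 with a median of 0.665, and relative to that median none of the 7 genes was lower in *hy5*.

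**Figure D3:**
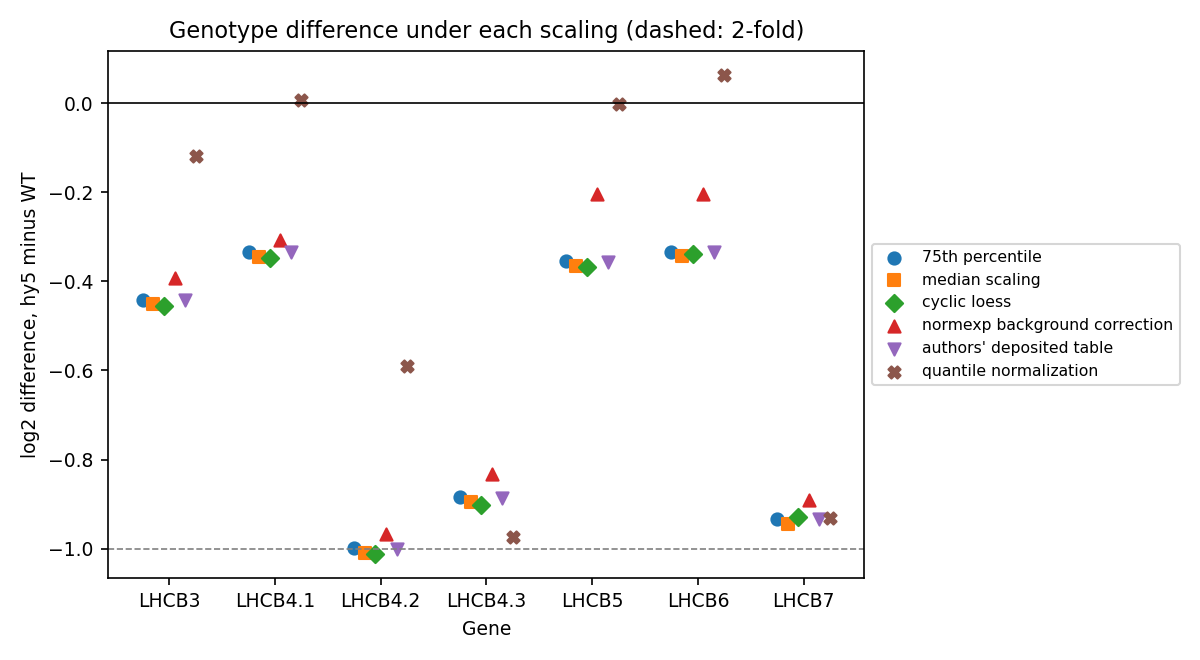
The log2 difference (*hy5* minus WT) of each minor antenna gene under 6 ways of scaling the arrays, shown by symbol, with the 2-fold fall dashed. *LHCB4.2*, *LHCB4.3* and *LHCB7* lie at -0.59 or lower under all of them. *LHCB3*, *LHCB4.1*, *LHCB5* and *LHCB6* lie between -0.12 and 0.064 under quantile normalization and lower otherwise. The *LHCB6* value under normexp comes from another probe.

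Arrays of one genotype deviated in the same direction across the members. *hy5* replicate 2 was the highest *hy5* array for 7 of 7 genes, and *hy5* replicate 1 the lowest for 6. WT replicate 2 was the lowest WT array for 6 genes, with *LHCB7* the exception. The mean of the 7 genes, each centered on its mean over the arrays, was 0.37, 0.24 and 0.30 on the WT arrays and -0.40, -0.17 and -0.35 on the *hy5* arrays (log2). The members share the arrays and their scaling factor, so these deviations are not 7 separate observations. Without *hy5* replicate 2, *LHCB4.2*, *LHCB4.3* and *LHCB7* had log2 differences of -1.05, -1.002 and -1.08, and 3 genes then passed the 2-fold limit. Without WT replicate 3 the number was 2, with *LHCB4.2* at -1.004 and *LHCB7* at -1.02. There 4 of the 7 genes fell at an adjusted p under 0.05, against 23.0% of all genes. Without WT replicate 2 the number past the 2-fold limit was 1, *LHCB4.2* at -1.06.

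The genes whose profile over the 6 arrays was most like this mean were *CESA9*, AT5G22390 and *GRF9* (AT2G42590), with Pearson r of 0.999, 0.998 and 0.998. *CESA9* encodes a cellulose synthase subunit and *GRF9* a 14-3-3 protein. The first of these had signals of 0.256, 0.237 and 0.251 in WT and 0.163, 0.191 and 0.169 in *hy5*. This likeness rests on 6 arrays in 2 genotypes, and 1281 of the 21583 other genes (5.94%) had an r above 0.95.

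The trimeric antenna and the antenna of photosystem I were compared in the same fit. Of the 8 *LHCB1* and *LHCB2* genes, 7 fell at a limma adjusted p under 0.05, against 26.6% of all genes. Their list median was -0.47, close to the -0.44 of the minor antenna. They ranged from *LHCB2.3* at -1.03 (limma adjusted p = 0.000376) to *LHCB2.1* at -0.052 (limma adjusted p = 0.772, 95% interval -0.38 to 0.27). The *LHCB2.1* probe was much dimmer, with a mean WT signal of 3.03 against 137 to 523 for the rest of this list. The *LHCB1* genes are near-identical and may share signal. Of the 6 *LHCA* genes 4 fell, against the same 26.6% of all genes, with a median of -0.42. *LHCA6* was at -0.63, *LHCA3* at -0.54, *LHCA2* at -0.52 and *LHCA1* at -0.33. *LHCA4* was at -0.24 and *LHCA5* at -0.17, neither past the threshold (limma adjusted p of 0.0635 and 0.29). Under quantile normalization these medians were -0.031 for the *LHCB1* and *LHCB2* genes, -0.16 for the *LHCA* genes and -0.12 for the minor antenna, and 4 of the 8 and 2 of the 6 genes came out higher. Only 1 of the 8 and 1 of the 6 then fell at an adjusted p under 0.05, against 27.5% of all genes. The 6 green tissue markers had a median of -0.59 and all fell, against 26.6% of all genes. Under quantile normalization their median was -0.11 and 1 of 6 passed, against 27.5% of all genes. No test was made between the lists.

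Genes that act on antenna proteins were examined next. Imported antenna proteins are carried through the stroma by the chloroplast signal recognition particle and inserted into the membrane by the translocase ALB3. Of the 5 genes of this route 4 fell at an adjusted p under 0.05, against 26.6% of all genes, with a median of -0.39. Under quantile normalization the median was -0.38 and 4 of 5 passed, against 27.5% of all genes. *cpSRP54*, which encodes the GTPase subunit of the particle, had signals of 3.64, 4.83 and 3.82 in WT and 2.15, 1.62 and 1.84 in *hy5* (log2 difference -1.13, SE 0.148, limma adjusted p = 0.000721). It was the only one of these past the 2-fold limit. *ALB3* was at -0.44, the antenna-binding subunit gene *cpSRP43* at -0.39 and the receptor gene *cpFTSY* at -0.38 (limma adjusted p of 0.00327, 0.0288 and 0.0151). *LTD*, which encodes a factor that hands antenna proteins to the particle, was at -0.18 (limma adjusted p = 0.261).

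Antenna proteins need chlorophyll b, which chlorophyllide a oxygenase (CAO) makes and the reductases NYC1, NOL and HCAR turn back to chlorophyll a. *CAO* had signals of 21.4, 20.9 and 22.9 in WT and 13.0, 13.9 and 14.3 in *hy5* (log2 difference -0.66, limma adjusted p = 0.000768). The groups were far apart. *NYC1* was at -0.34 and *NOL* at -0.28 (limma adjusted p of 0.015 and 0.0335), and *HCAR* was at -0.14 (limma adjusted p = 0.288). Thus 3 of the 4 genes fell at an adjusted p under 0.05, against 26.6% of all genes.

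Of 6 genes that adjust the antenna to light, 4 fell at an adjusted p under 0.05 and none rose. Over all genes 26.6% fell and 26.3% rose. *STN7*, encoding the kinase that phosphorylates antenna proteins in state transitions, had signals of 4.204, 4.86 and 4.44 in WT and 2.52, 2.09 and 2.37 in *hy5* (log2 difference -0.95, limma adjusted p = 0.000385). *PPH1*, encoding the opposing phosphatase, was at -0.49 (limma adjusted p = 0.00571). *ZEP* and *VDE*, encoding both enzymes of the xanthophyll cycle, were at -0.73 and -0.26 (limma adjusted p of 0.00207 and 0.0361). *PSBS*, encoding a sensor of energy-dependent quenching, was at -0.16 (limma adjusted p = 0.234). *STN8*, encoding the kinase of core proteins, was at 0.28 (limma adjusted p = 0.0588) and passed the threshold as higher under normexp, quantile and cyclic loess processing. Of the GLK transcription factors, which activate antenna genes, *GLK2* had signals of 12.1, 11.1 and 10.73 in WT and 6.46, 7.91 and 7.80 in *hy5* (log2 difference -0.62, limma adjusted p = 0.00288). *GLK1* was at 0.070 (limma adjusted p = 0.611, 95% interval -0.18 to 0.32).

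**Figure D4:**
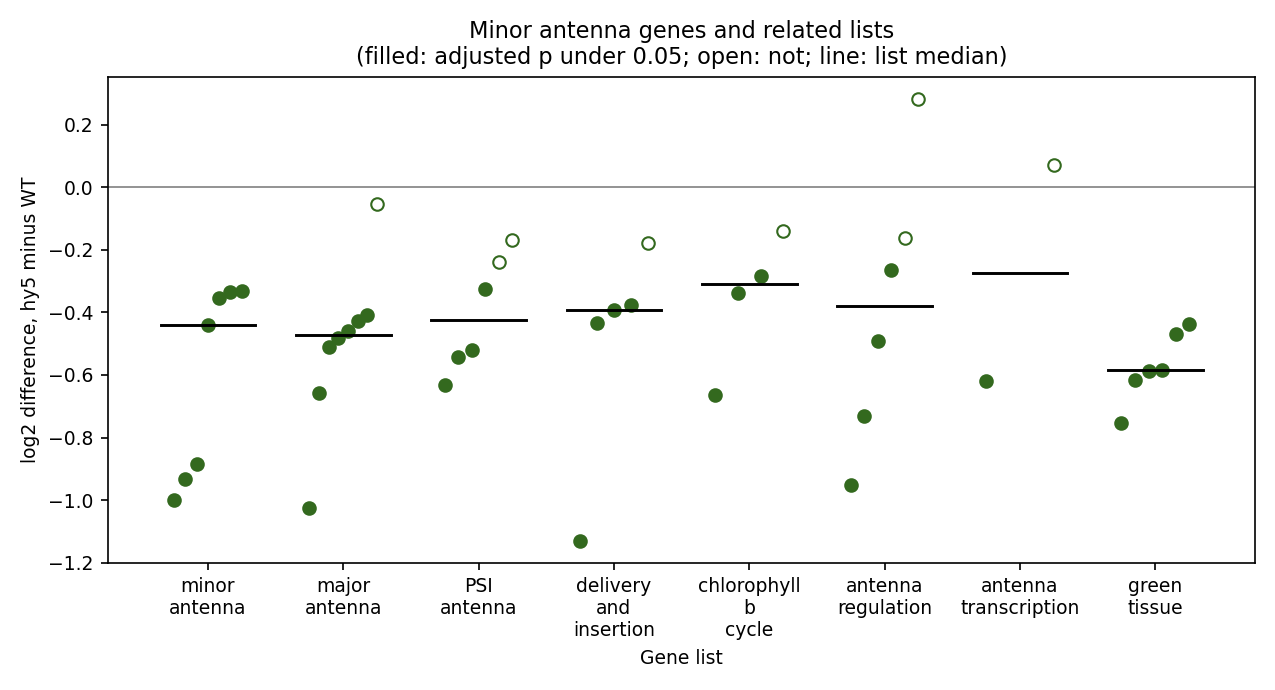
The log2 difference (*hy5* minus WT) of each gene in the antenna lists and related lists, a point per gene, filled where the limma adjusted p was under 0.05, with a bar at each list's median. The minor antenna genes lie between -1.0 and -0.33 with a median of -0.44, beside medians of -0.47 for *LHCB1* and *LHCB2* and -0.42 for *LHCA* genes. Under quantile normalization these 3 medians were -0.12, -0.031 and -0.16. *LHCB4.1* and *LHCB6* were then not lower, and *LHCB3* and *LHCB5* did not pass an adjusted p under 0.05.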

How the data were processed

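Seedling RNA of WT and *hy5* had been hybridized to one-color Agilent arrays, 3 per genotype. The deposited scanner files hold the signal intensity of each spot, background-subtracted by the authors with Agilent Feature Extraction (version 10.7.3 in the submitters' processing notes). The deposited value table holds a ratio, the signal over the third quartile of its array, and was used as an alternative. Here log2 of the processed signal minus the array's 75th percentile was used. Control spots and flagged outlier spots were left out, and a probe was tested where every array of 1 genotype or the other had it well above background. The tested probe with the highest mean signal stood for its gene and was chosen anew under each alternative. Genotypes were compared with limma 3.58.1 (R 4.3.3) and Benjamini-Hochberg adjustment over all genes, or over all probes for probe values. The procedure was tried on simulated data with independent noise for each gene and no slide effect, which cannot show how a slide effect would act. Of 29030 locus codes, 28595 matched the RefSeq gene table. Probe and gene sequences were not used here. All 7 members were named, with genes of the lists and the 3 most alike profiles. Members and lists were chosen with earlier results of these data known. Alternatives were normexp correction (on the median spot signal in place of the mean), quantile, median and cyclic loess scaling, the value table, other filters, probe averaging, other variance priors, a replicate block, the methods' t-test and leaving out each array. Probe values and list medians under the scalings were added after seeing the data. Same-numbered replicates did not deviate together (r of -0.025, -0.087 and 0.085).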

Additional observations from a re-analysis of the deposited data

How the results depend on the processing

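Of 126 values of single members under the 18 alternatives, 106 kept direction and threshold, 18 lost the threshold and 2 changed sign, both under quantile normalization (*LHCB4.1* 0.0069, *LHCB6* 0.064). There 3 members were lower at a limma adjusted p under 0.05, against 27.5% of all genes, and the members' median was -0.12. *LHCB4.2*, *LHCB4.3* and *LHCB7* kept their call in all 18, with adjusted p of at most 0.00246, 0.00705 and 0.00956 by limma, and 0.0321, 0.0266 and 0.0318 by the methods' t-test after Benjamini-Hochberg adjustment. 1 member passed the 2-fold limit under median scaling, cyclic loess, the deposited table and the methods' t-test, unadjusted or after Benjamini-Hochberg adjustment. After that adjustment 4 members were lower at an adjusted p under 0.05, against 15.1% of all genes. At 2-fold 868 genes were then higher, against 1414 in the main comparison. Normexp called 1253 genes (529 higher, 724 lower) at 2-fold against 2460, and no filter on dim probes called 5047, 3664 of them lower. Leaving out each array gave 4 to 7 members lower, 0 to 3 past 2-fold, a median of -0.47 to -0.41, and 2269 to 2697 genes called, 984 to 1231 lower and 1285 to 1569 higher. The share of all genes lower at an adjusted p under 0.05 was then 22.0% to 25.5%. With a replicate block 5 members were lower (24.1% of all genes), without *LHCB4.1* (limma adjusted p = 0.0572) and *LHCB6* (limma adjusted p = 0.0672). Of the medians added later, the seed list moved to 0.95 under normexp, with 9 of its 12 genes higher and 2 lower at an adjusted p under 0.05. Under normexp 48.6% of all genes were lower at that threshold. The *LHCB1* and *LHCB2*, *LHCA* and green tissue lists moved to -0.031, -0.16 and -0.11 under quantile normalization. A slide block could not be fitted, since each genotype had its own slide. The causes were not tested.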
